A study of Mus musculus with 6 samples.

Results

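The genes described here encode splicing factors and hnRNP proteins, chosen by symbol with earlier results of these data known. They are the Snrp, Lsm, Sf3a, Sf3b, U2af, Prpf, Srsf and Hnrnp genes in the platform's probe annotation. The choice found 74 of the 18193 genes named by a probe set of their own, and the brightest such probe set over the 6 arrays stands for the gene. Of these, 73 passed a filter on low values, and Srsf12 did not, at 2.48, 2.05 and 1.88 in Gr1hi and 1.99, 2.06 and 2.15 in Gr1lo. Expression was measured with 3' arrays on total RNA of sorted bone marrow cells (femur and tibia) of HdcGFP mice on a C57BL/6 background, labelled female; no age is given. HdcGFP mice carry a fluorescent reporter of Hdc, which encodes the enzyme that makes histamine. By their titles, the Gr1hi group (3 arrays) held cells positive or high for GFP, positive for CD11b and high for Gr1. The Gr1lo group (3 arrays) held, by title, GFP-positive or GFP-high, CD11b-positive cells low for Gr1. A descriptive field of Gr1lo replicate 3 can be read as GFP-negative, and its title was followed. No treatment is given for either group, and the comparison asks how the Gr1hi cells differ from the Gr1lo cells.

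Splicing removes introns from pre-mRNA. It is carried out by the spliceosome, which assembles on each intron from the U1, U2, U4, U5 and U6 small nuclear ribonucleoprotein particles (snRNPs), each an RNA with a ring of Sm or LSm proteins and particle-specific proteins, while SR proteins and hnRNPs bound to the pre-mRNA favour or oppose the use of nearby sites. Maturing granulocytes are known for retaining more introns than their precursors, and genes of this machinery, such as Sf3b1, Srsf2 and U2af1, are known as targets of mutation in human myeloid neoplasms.

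Values are log2 probe set values that the authors made with GCRMA, and differences are Gr1hi minus Gr1lo on that scale, with the SE of the limma fit over all 12732 tested genes and p-values adjusted over all of them. Arrays correlated at 0.992 to 0.996 within the groups and at 0.917 to 0.942 between them. Whether replicates came from different mice is not in the labels, and the p-values cover only the spread among these 6 samples, which may be technical. Eif2s3y, a Y-linked gene, lay between 9.02 and 10.66 on all 6 arrays against the female label, and Xist was high in replicate 3 of either group (10.14 in Gr1hi, 10.95 in Gr1lo) and at most 2.43 on the other arrays. Spiked poly-A controls averaged 6.75 and 6.70 in replicate 1 of Gr1hi and Gr1lo, and 5.75 to 6.10 on the other arrays. Counts are therefore also given without each of these pairs of arrays. The marker list of neutrophils stood at summed log2 levels of 17.22 to 17.28 in Gr1hi and 16.88 to 17.10 in Gr1lo, whereas 4 of 5 measured erythroid markers and 4 of 6 T and NK cell markers lay within the level of the absent-transcript controls (at most 2.77) on every array.

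On the deposited scale most splicing factor and hnRNP transcripts were lower in Gr1hi. Of the 73 tested members, 54 fell (31.8% of all tested genes were lower) and 4 rose (24.6% of all tested genes were higher), while 15 did not pass the test; in either direction 56.4% of all tested genes passed. Their median difference was -0.77, with quartiles of -1.48 and -0.24, beside a median of 0.03 and quartiles of -0.70 and 0.34 over all tested genes. At least 2-fold falls were found in 29 members (19.4% of all tested genes) and a 2-fold rise in 1, Lsm10 (10.6% of all tested genes). Gr1hi and Gr1lo arrays were fully apart in 62 of 73 members (84.9%), beside 65.5% of all tested genes. In sorted bulk samples such as these, fewer cells with a transcript and less of it per cell cannot be told apart.

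Of the 54, 50 also fell without both replicate 3 arrays, where 5 members rose, and 50 fell without both replicate 1 arrays, where 4 rose. The balance between lower and higher rests on the scaling. When each array was centred on its kept genes' median (kept-gene centring), this moved the median of all genes by 0.67, to 0.70, and the members' median to -0.09: 32 members were then lower and 20 higher (18.2% and 65.5% of all tested genes). Centring on the spiked hybridization controls (control centring), which averaged 8.24 to 8.34 in Gr1hi and 7.90 to 8.20 in Gr1lo, moved the median of all genes by -0.26, to -0.23, and the members' median to -1.03: 61 were lower and 3 higher (38.1% and 14.6% of all tested genes). No member that rose on the deposited scale was lower under either centring, and the 1 member that changed from lower to higher, under kept-gene centring, was Hnrnpf (0.22, limma adjusted p = 0.0252). Members between -0.67 and 0.26 have no fixed sign across these scalings.

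**Figure D1:**
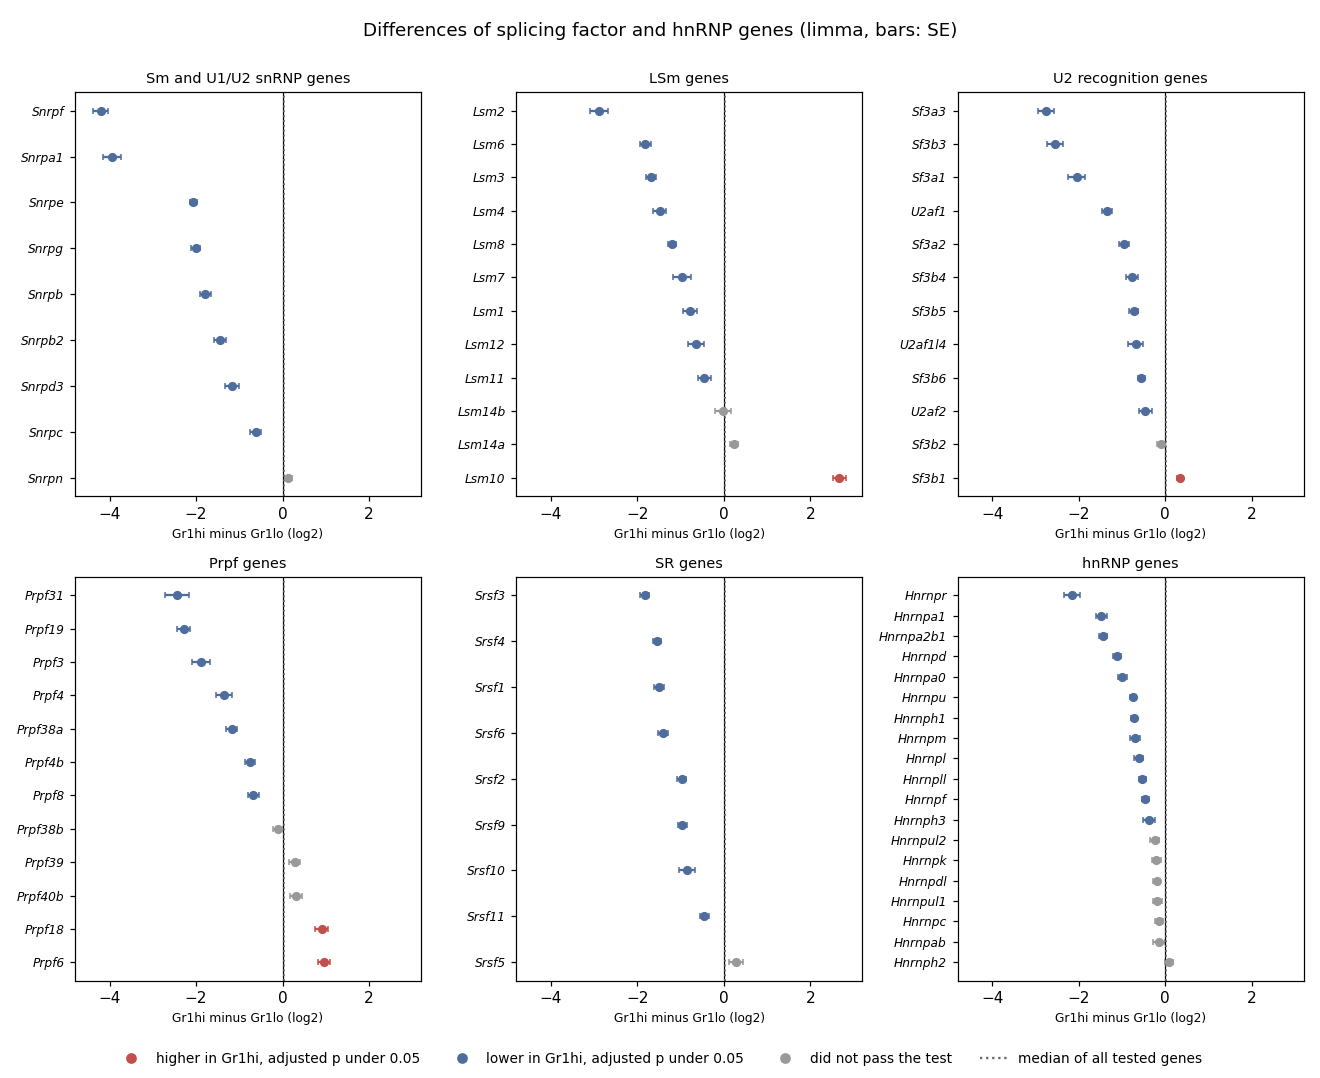
Difference between the groups for the 73 tested splicing factor and hnRNP genes, Gr1hi minus Gr1lo in log2 units, in 6 panels by class; points are differences and bars are limma SEs, blue for lower, red for higher and grey for genes that did not pass the test. Snrpf at -4.21 and Lsm10 at 2.67 mark the ends of the range, and most points lie left of the dotted line, the median of all tested genes (0.03).

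Several marker lists also differed between the groups, some lower and some higher in Gr1hi. Of 8 neutrophil markers Mmp8, Cxcr2 and Csf3r were higher in Gr1hi, by 2.46, 2.99 and 2.68, and the other 5 did not pass the test. Those 5 lay at 13.99 to 15.01 on every array, near the highest value measured (15.01), so a difference between the groups could be missed. All 5 precursor genes (Elane, Mpo, Prtn3, Ctsg and Ms4a3) were lower in Gr1hi, with summed log2 levels of 10.74 to 11.72 in Gr1hi and 15.32 to 15.71 in Gr1lo. All 15 measured genes of DNA replication and mitosis fell as well, to summed levels of 12.46 to 12.69 in Gr1hi, against 15.84 to 15.99 in Gr1lo. Monocyte and macrophage markers summed to 11.92 to 12.23 in Gr1hi and 9.92 to 10.95 in Gr1lo, with 2 of 6 tested higher (Csf1r and Adgre1) and 1 lower (F13a1). The T and NK cell list summed to 8.52 to 8.78 in Gr1hi and 5.44 to 5.98 in Gr1lo; of 2 tested, Cd3d was higher and Cd8a did not pass the test, while Cd3e, Cd3g, Ncr1 and Gzma lay within the absent-transcript level. Of 3 tested progenitor markers Kit was lower in Gr1hi, by 1.94, and Meis1 and Hoxa9 did not pass the test. Cd34, Flt3 and Mecom lay within the absent-transcript level. Of 5 tested basophil and mast cell markers Kit and Ms4a2 (-1.64) were lower. Mcpt8, Cpa3 and Gata2 (-0.66, 0.87 and 0.20) did not pass the test. The progenitor list and the basophil and mast cell list summed to 6.60 to 7.14 and 6.75 to 8.66 in Gr1hi, and to 8.27 to 8.79 and 8.88 to 9.09 in Gr1lo. Of 6 tested B cell markers 3 were higher and 1 lower in Gr1hi. That list summed to 6.12 to 6.52 in Gr1hi and 6.21 to 6.38 in Gr1lo. The part of any of these cell types in the splicing results was not tested. As a sign of RNA quality, the 3' probe set of Gapdh exceeded its 5' probe set by 0.14 to 0.35 in Gr1hi and 0.25 to 0.45 in Gr1lo, and that of Actb by 0.65 to 0.76 in Gr1hi and 0.77 to 0.94 in Gr1lo. Their part was not tested either.

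Core snRNP genes had the lowest median of the 6 classes. Of 9 tested Snrp genes 8 fell and 0 rose, with a median difference of -1.79. Kept-gene centring gave 7 lower and 1 higher. Beside this and the later class counts, 31.8% of all tested genes were lower and 24.6% higher on the deposited scale. Under kept-gene centring 18.2% of all tested genes were lower and 65.5% higher, with a median of 0.70. Snrpf, which encodes the SmF subunit of the Sm ring, was measured at 5.77, 5.94 and 5.98 in Gr1hi replicates 1, 2 and 3, against 9.95, 10.48 and 9.90 in Gr1lo replicates 1, 2 and 3; replicates are given in this order throughout. It fell by 4.21 (SE 0.18, limma adjusted p = 2.19e-07), or 18.5-fold, the largest among the members, a fall that rests on 1 probe set. Snrpa1, whose product is a protein particular to the U2 particle, stood at 6.25, 5.78 and 6.26 in Gr1hi and 10.03, 10.39 and 9.72 in Gr1lo, a difference of -3.95 (SE 0.21, limma adjusted p = 5.05e-07). In either gene every Gr1hi array lay more than 3 log2 units below every Gr1lo array.

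The promoters of the members with the largest falls (Snrpf and Snrpa1) and the largest rises (Lsm10 and Prpf6, described below) are shown because they are the ends of the members' range. They are RefSeq windows of 300 bases on GRCm38.p6, from 250 before the annotated start of the gene to 50 after it, printed 5′ to 3′ on the gene's strand, with capitals where a searched motif matched. Snrpf is on the minus strand at chr10:93589609-93589908, Snrpa1 on the plus strand at chr7:66060086-66060385, Lsm10 on the plus strand at chr4:126096403-126096702 and Prpf6 on the plus strand at chr2:181601069-181601368.
Snrpf: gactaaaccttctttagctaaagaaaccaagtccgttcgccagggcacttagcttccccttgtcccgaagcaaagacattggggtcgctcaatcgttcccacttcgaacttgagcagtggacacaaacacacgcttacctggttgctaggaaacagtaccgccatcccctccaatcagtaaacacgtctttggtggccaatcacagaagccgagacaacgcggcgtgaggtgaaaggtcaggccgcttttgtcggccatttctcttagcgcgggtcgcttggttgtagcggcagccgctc
Snrpa1: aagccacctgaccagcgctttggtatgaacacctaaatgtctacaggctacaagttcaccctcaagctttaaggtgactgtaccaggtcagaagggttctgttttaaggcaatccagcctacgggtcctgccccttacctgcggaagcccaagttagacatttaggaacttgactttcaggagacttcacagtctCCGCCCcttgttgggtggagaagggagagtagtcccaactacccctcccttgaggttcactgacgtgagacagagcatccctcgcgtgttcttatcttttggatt
Lsm10: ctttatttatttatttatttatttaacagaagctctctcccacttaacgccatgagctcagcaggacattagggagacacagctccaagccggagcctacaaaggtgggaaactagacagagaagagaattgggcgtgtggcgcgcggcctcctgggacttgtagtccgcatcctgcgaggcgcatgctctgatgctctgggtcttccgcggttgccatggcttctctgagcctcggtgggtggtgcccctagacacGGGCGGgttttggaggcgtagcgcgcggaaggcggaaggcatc
Prpf6: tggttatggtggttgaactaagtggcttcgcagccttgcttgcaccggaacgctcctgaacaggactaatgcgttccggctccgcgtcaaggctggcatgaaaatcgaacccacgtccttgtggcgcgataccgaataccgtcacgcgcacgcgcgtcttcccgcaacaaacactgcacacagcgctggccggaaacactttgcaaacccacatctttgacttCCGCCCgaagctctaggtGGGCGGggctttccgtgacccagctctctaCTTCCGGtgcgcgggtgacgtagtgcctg
The capitals mark a GC box, GGGCGG on either strand, in Snrpa1 and Lsm10 (1 match each) and in Prpf6 (at both ends of a short stretch), and an ETS-type motif, CCGGAAG on the opposite strand, in Prpf6. Snrpf held none of the 8 motifs searched. The table matched 64 of 74 members by symbol, and the first window listed for each gene was used. On both strands, CCGGAAG was found in 18 of 64 members' windows (28.1%), against 17.5% of the windows of all tested genes and 9.12% of all 27025 genes of the table. It lay in 15 of 46 members that fell, 1 of 3 that rose and 2 of 14 that did not pass the test. GGGCGG was found in 67.2% of members' windows, 61.0% of those of tested genes and 35.9% of all. The E-box CACGTG was in 6 members' windows (9.38%, against 10% of tested genes and 7.24% of all), TATAAA in 5 (7.81%, 7.69% and 14.2%), AAGATGGC in 4 (6.25%, 4.67% and 2.88%) and TTTCGCGC in 1 (1.56%, 0.642% and 0.318%). Neither the palindromic NRF1-type motif nor TTTGGCGC was found in a member's window, against 2.02% and 1.03% of tested genes and 0.977% and 0.536% of all. The searched motifs do not contain each other, and a match is a description of these letters only. Median GC content was 60% in members' windows and 60.3% in those of tested genes, with a median of 25 and 20 CpG.

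The other Sm ring genes had smaller differences than Snrpf. Snrpe was at 10.72, 10.66 and 10.58 in Gr1hi and 12.71, 12.82 and 12.62 in Gr1lo (difference -2.06, SE 0.084). Snrpg, at 10.14, 9.95 and 9.89 in Gr1hi and 11.94, 12.17 and 11.91 in Gr1lo, differed by -2.01 (SE 0.11). Snrpb, which encodes SmB, differed by -1.79 (SE 0.12), with 10.21, 9.95 and 10.28 in Gr1hi and 11.92, 12.12 and 11.76 in Gr1lo. The groups did not overlap in these 3 genes, and their limma adjusted p-values were 1.68e-07, 5.43e-07 and 2.45e-06. Snrpd3 fell by 1.17 (SE 0.17, limma adjusted p = 0.000233), so that the 5 Sm ring genes Snrpb, Snrpd3, Snrpe, Snrpf and Snrpg fell. Snrpn, a close relative of Snrpb, is described below and did not pass the test. The other kept probe set of Snrpd3 differed by -0.057 and did not pass the test, so its fall rests on the probe set used.

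Among the other particle-specific genes, Snrpb2, also of the U2 particle, was measured at 9.54, 9.46 and 9.83 in Gr1hi and 11.02, 11.28 and 10.85 in Gr1lo (difference -1.44, SE 0.14, limma adjusted p = 2.08e-05). Snrpc, whose product helps the U1 particle bind the start of the intron, fell by 0.62 (SE 0.13, limma adjusted p = 0.00228) on the deposited scale, with 8.39, 8.19 and 8.40 in Gr1hi and 8.90, 9.04 and 8.91 in Gr1lo, but stood at 0.052 under kept-gene centring, without passing the test. The groups were apart in both genes. Snrpn, a close relative of Snrpb known from brain, lay at 2.80, 2.87 and 2.71 in Gr1hi and 2.76, 2.51 and 2.73 in Gr1lo, near the level of the absent-transcript controls, and did not pass the test (difference 0.13, limma adjusted p = 0.306). A further 6 symbols that fit the choice are carried only by probe sets shared with other genes and were not used.

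Most LSm genes fell, and Lsm10 rose. Of 12 tested 9 fell and 1 rose, with a median difference of -0.88. Kept-gene centring gave 5 lower and 3 higher (18.2% and 65.5% of all tested genes), with a median of -0.20. All 7 measured subunits of the LSm rings, Lsm1, Lsm2, Lsm3, Lsm4, Lsm6, Lsm7 and Lsm8, fell, with differences of -2.89 to -0.78; under kept-gene centring all 7 stayed below 0, and Lsm1 and Lsm7 did not pass the test (limma adjusted p = 0.537 and 0.173). A ring with Lsm8 binds the end of U6 RNA in the nucleus, and a ring with Lsm1 in its place acts in cytoplasmic mRNA decay. Lsm2, shared by both rings, was at 2.98, 2.61 and 2.90 in Gr1hi, close to the absent-transcript level, and 5.66, 6.05 and 5.44 in Gr1lo (difference -2.89, SE 0.20, limma adjusted p = 2.77e-06). Its difference is therefore bounded by the background in Gr1hi.

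Other shared subunits fell as well. Lsm6 was at 9.05, 9.24 and 9.02 in Gr1hi and 10.81, 11.09 and 10.84 in Gr1lo, a difference of -1.81 (SE 0.12). Lsm3 differed by -1.69 (SE 0.12), with 9.05, 9.01 and 8.97 in Gr1hi and 10.64, 10.91 and 10.53 in Gr1lo, and Lsm4 by -1.48 (SE 0.16), with 7.63, 7.96 and 7.98 in Gr1hi and 9.14, 9.51 and 9.37 in Gr1lo. The groups of these 3 genes did not overlap, with limma adjusted p-values of 1.83e-06, 3.11e-06 and 3.25e-05. The subunit that marks the nuclear ring, Lsm8, fell by 1.21 (SE 0.093, limma adjusted p = 4.47e-06), with 9.70, 9.86 and 9.78 in Gr1hi and 10.98, 11.01 and 10.97 in Gr1lo, and the subunit that marks the cytoplasmic ring, Lsm1, fell by 0.78 (SE 0.17, limma adjusted p = 0.00272), with 7.69, 7.88 and 8.12 in Gr1hi and 8.83, 8.76 and 8.46 in Gr1lo. Without both replicate 1 arrays Lsm1 did not pass the test (-0.61, limma adjusted p = 0.0546). Lsm7 fell by 0.97 (SE 0.20, limma adjusted p = 0.00262).

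Lsm10 went the other way. Its product sits with that of Lsm11 in the ring of the U7 particle, which trims the ends of histone pre-mRNAs rather than removing introns. Lsm10 was measured at 9.67, 9.59 and 9.52 in Gr1hi and 7.15, 6.75 and 6.86 in Gr1lo, a rise of 2.67 (SE 0.15, limma adjusted p = 7.01e-07) or 6.38-fold, the largest rise among the members, and every Gr1hi array lay above every Gr1lo array. Lsm11, at 3.45, 3.73 and 3.76 in Gr1hi and 4.07, 4.05 and 4.19 in Gr1lo, fell by 0.45 (limma adjusted p = 0.0284) but stood at 0.22 (limma adjusted p = 0.238) under kept-gene centring, and did not pass without both replicate 3 (limma adjusted p = 0.0822) or both replicate 1 arrays (limma adjusted p = 0.211). Lsm10 passed under both centrings and rests on 1 probe set. The genes of the translational repressors Lsm14a (11.18, 11.00 and 10.94 in Gr1hi, 10.81, 10.74 and 10.85 in Gr1lo) and Lsm14b (7.34, 7.04 and 7.38 in Gr1hi, 7.33, 7.45 and 7.04 in Gr1lo) did not pass the test (limma adjusted p = 0.0585 and 0.936). Lsm12 fell by 0.65 (limma adjusted p = 0.0127), but stood at 0.029 under kept-gene centring and did not pass without both replicate 3 arrays (limma adjusted p = 0.0865).

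**Figure D2:**
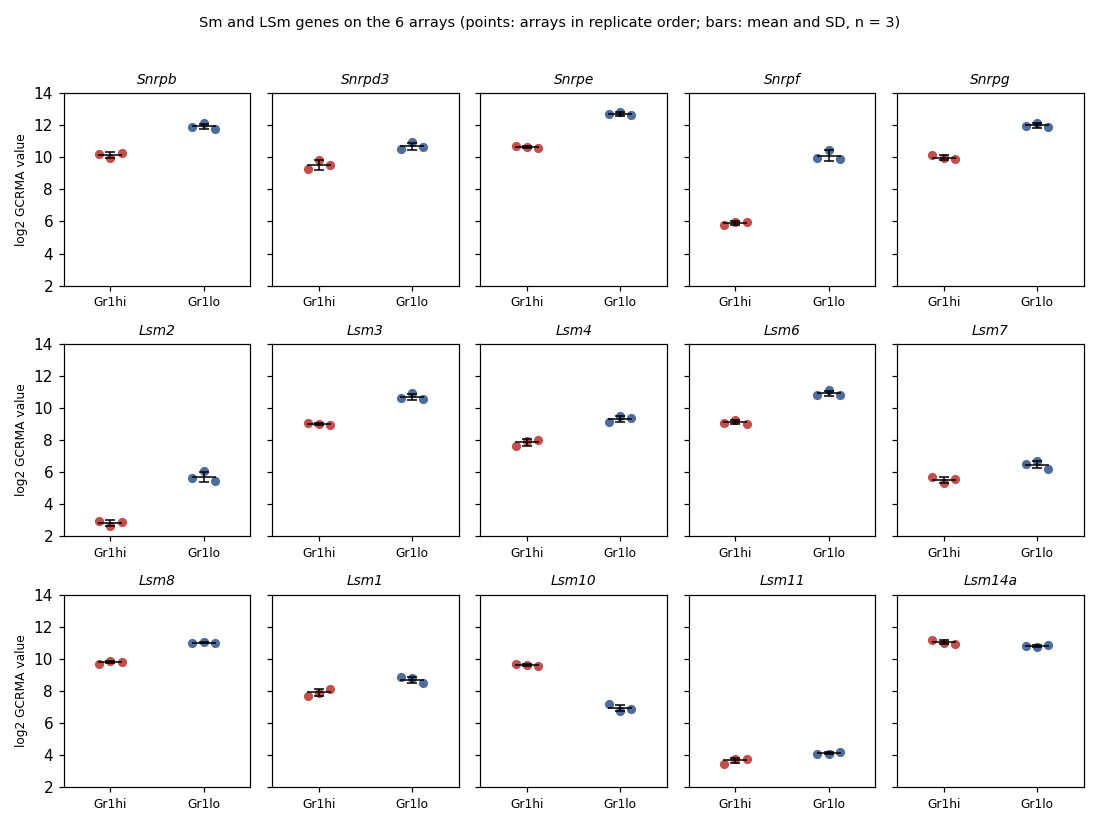
Log2 GCRMA values of 5 Sm ring genes and 10 LSm genes on each array, Gr1hi left of Gr1lo; points are arrays, bars the mean and SD of 3. In the 12 ring genes shown all Gr1hi points lie below all Gr1lo points, whereas Lsm10 lies at 9.52 to 9.67 in Gr1hi, above 6.75 to 7.15 in Gr1lo.

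Most genes of U2 and branch site recognition fell, and Sf3b1 rose. Of 12 tested 10 fell and 1 rose, with a median difference of -0.75. Kept-gene centring gave 4 lower and 2 higher (18.2% and 65.5% of all tested genes), with a median of -0.075. SF3a and SF3b are the complexes with which the U2 particle binds the branch site, and U2AF marks the end of the intron beforehand. All 3 SF3a genes fell: Sf3a3 was at 5.88, 5.94 and 6.36 in Gr1hi and 8.64, 9.03 and 8.81 in Gr1lo (difference -2.76, SE 0.19, limma adjusted p = 2.26e-06), and Sf3a1 at 5.14, 5.32 and 5.22 in Gr1hi and 7.21, 7.58 and 7.02 in Gr1lo (difference -2.05, SE 0.20, limma adjusted p = 1.94e-05). Sf3a2 differed by less, -0.94 (SE 0.12, limma adjusted p = 9.2e-05), with 8.76, 8.82 and 9.01 in Gr1hi and 9.79, 9.87 and 9.76 in Gr1lo, and lost its call under kept-gene centring (-0.27, limma adjusted p = 0.0616). In none of the 3 did the groups overlap.

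The SF3b genes did not move together. Sf3b3 was at 5.99, 5.78 and 5.80 in Gr1hi and 8.35, 8.71 and 8.18 in Gr1lo and fell by 2.56 (SE 0.18, limma adjusted p = 3.05e-06), while the differences of Sf3b4, Sf3b5 and Sf3b6, which also passed the test, were -0.77, -0.73 and -0.55. Sf3b4 stood at 7.39, 7.47 and 7.63 in Gr1hi and 8.31, 8.23 and 8.25 in Gr1lo (limma adjusted p = 0.00107), and differed by -0.093 under kept-gene centring (limma adjusted p = 0.561). Sf3b5 (-0.056, limma adjusted p = 0.624) and Sf3b6 (0.12, limma adjusted p = 0.239) lost their calls under that centring too. Sf3b1, the large scaffold that holds the branch site adenosine, was instead higher, at 12.66, 12.60 and 12.51 in Gr1hi and 12.27, 12.23 and 12.23 in Gr1lo. Its rise of 0.35 (SE 0.068, limma adjusted p = 0.00174) separated the groups, but did not pass under control centring (difference 0.089, limma adjusted p = 0.599). Sf3b2, at 11.89, 11.69 and 11.96 in Gr1hi and 12.00, 12.01 and 11.86 in Gr1lo, did not pass the test (difference -0.11, limma adjusted p = 0.351).

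U2af1, which reads the AG at the end of the intron, was at 9.95, 9.73 and 9.78 in Gr1hi and 11.06, 11.30 and 11.14 in Gr1lo and fell by 1.35 (SE 0.11, limma adjusted p = 5.57e-06). Its partner U2af2, which binds the pyrimidine tract, fell by 0.46 (SE 0.15, limma adjusted p = 0.0229), with 7.86, 8.18 and 7.85 in Gr1hi and 8.35, 8.50 and 8.41 in Gr1lo. The relative of U2af1, U2af1l4, fell by 0.68 (limma adjusted p = 0.00705). All 3 had separate groups, and under kept-gene centring U2af2 stood at 0.22 and U2af1l4 at -0.0033, neither passing the test. U2af2 also did not pass without both replicate 3 arrays (limma adjusted p = 0.127) or without both replicate 1 arrays (limma adjusted p = 0.137).

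Prpf genes, named after yeast pre-mRNA processing factors, were the most divided class. Of 12 tested 7 fell and 2 rose, with a median difference of -0.71. Kept-gene centring gave 5 lower and 5 higher (18.2% and 65.5% of all tested genes). Prpf31, Prpf3 and Prpf4 encode proteins of the particle that joins U4 and U6. Prpf31 was at 3.95, 4.34 and 4.37 in Gr1hi and 6.66, 7.21 and 6.15 in Gr1lo (difference -2.45, SE 0.28, limma adjusted p = 5.16e-05), and Prpf3 at 5.03, 5.09 and 5.31 in Gr1hi and 6.70, 7.37 and 7.02 in Gr1lo (difference -1.89, SE 0.22, limma adjusted p = 5.52e-05). Prpf4, at 3.36, 3.42 and 3.26 in Gr1hi and 4.64, 5.06 and 4.40 in Gr1lo, fell by 1.36 (SE 0.19, limma adjusted p = 0.000216). All 3 were lower on every Gr1hi array than on any Gr1lo array. The other kept probe set of Prpf31 was lower by less (-0.46), and that of Prpf4 differed by -0.27 without passing the test.

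Prpf6, whose product bridges the U4/U6 and U5 particles, rose where these fell. Its values were 9.35, 9.46 and 9.78 in Gr1hi and 8.58, 8.56 and 8.60 in Gr1lo, a rise of 0.95 (SE 0.14, limma adjusted p = 0.000263). Prpf18, which acts in the last catalytic step, rose by 0.90 (SE 0.14, limma adjusted p = 0.000478), with 8.96, 9.11 and 9.18 in Gr1hi and 8.04, 8.10 and 8.40 in Gr1lo. The groups were apart in both, and either rise passed under both centrings. Prpf8, the core protein of the U5 particle, fell by 0.68 (SE 0.12, limma adjusted p = 0.00105), with 8.59, 8.62 and 8.77 in Gr1hi and 9.30, 9.45 and 9.26 in Gr1lo, and stood at -0.0016 under kept-gene centring, without passing the test.

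Prpf19, a ubiquitin ligase of the complex that activates the spliceosome, was at 9.60, 9.28 and 9.59 in Gr1hi and 11.70, 12.10 and 11.54 in Gr1lo and fell by 2.29 (SE 0.15, limma adjusted p = 2.12e-06). Prpf38a fell by 1.18 (SE 0.12, limma adjusted p = 2.94e-05), with 8.41, 8.47 and 8.45 in Gr1hi and 9.49, 9.78 and 9.60 in Gr1lo, a call that the mean of its probe sets did not give (-0.18, limma adjusted p = 0.236). Its relative Prpf38b (9.73, 9.74 and 9.65 in Gr1hi, 9.82, 9.94 and 9.69 in Gr1lo) and Prpf39, a U1 particle factor in yeast (8.97, 8.97 and 9.21 in Gr1hi, 8.85, 8.77 and 8.69 in Gr1lo), did not pass the test (limma adjusted p = 0.423 and 0.0833). The kinase gene Prpf4b fell by 0.75 (limma adjusted p = 0.000365) but not under kept-gene centring (-0.077, limma adjusted p = 0.566), and Prpf40b, at 2.92, 3.41 and 3.12 in Gr1hi and 2.84, 2.92 and 2.75 in Gr1lo, did not pass the test, near the level of the absent-transcript controls.

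SR protein genes were lower nearly throughout. Of 9 tested 8 fell and 0 rose, with a median difference of -0.98. Kept-gene centring gave 6 lower and 1 higher (18.2% and 65.5% of all tested genes). SR proteins bind exonic enhancers through an RNA recognition motif and recruit the spliceosome through arginine and serine repeats. Srsf3, the smallest of the family, was at 10.91, 11.01 and 10.78 in Gr1hi and 12.72, 12.91 and 12.57 in Gr1lo and fell by 1.83 (SE 0.10, limma adjusted p = 7.76e-07). Srsf1, the founding member, was at 11.25, 10.85 and 11.18 in Gr1hi and 12.60, 12.76 and 12.42 in Gr1lo (difference -1.50, SE 0.12, limma adjusted p = 7e-06). The spread within either group was far smaller than these gaps.

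Srsf4 and Srsf6, a pair of close relatives, differed by -1.54 and -1.41. Srsf4 was at 9.43, 9.34 and 9.48 in Gr1hi and 10.99, 10.99 and 10.91 in Gr1lo (SE 0.10, limma adjusted p = 1.3e-06), and Srsf6 at 9.79, 9.94 and 9.72 in Gr1hi and 11.16, 11.43 and 11.09 in Gr1lo (SE 0.12, limma adjusted p = 7.54e-06). Srsf2 was at 10.56, 10.82 and 10.82 in Gr1hi and 11.62, 11.79 and 11.71 in Gr1lo (difference -0.98, SE 0.10, limma adjusted p = 2.8e-05), and Srsf9 at 9.83, 10.01 and 9.82 in Gr1hi and 10.76, 10.98 and 10.79 in Gr1lo (difference -0.96, SE 0.11, limma adjusted p = 4.44e-05). In these 4 genes, too, no Gr1hi array reached a Gr1lo array.

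Srsf10, a repressor of splicing when dephosphorylated, fell by 0.86 (limma adjusted p = 0.00385), with 8.41, 7.91 and 8.26 in Gr1hi and 9.14, 9.30 and 8.70 in Gr1lo, and did not pass under kept-gene centring (-0.18, limma adjusted p = 0.35). Srsf11 fell by 0.45 (limma adjusted p = 0.00374), with 10.46, 10.44 and 10.51 in Gr1hi and 10.93, 11.06 and 10.76 in Gr1lo, but differed by 0.22 (limma adjusted p = 0.0631) under kept-gene centring, and by -0.13 (limma adjusted p = 0.273) as the mean of its probe sets. Srsf5 was the exception, at 11.02, 11.14 and 11.03 in Gr1hi and 10.61, 10.53 and 11.22 in Gr1lo (difference 0.28, SE 0.17, limma adjusted p = 0.188). Its groups overlap through Gr1lo replicate 3: without that array the difference was 0.49 (limma adjusted p = 0.00322), and without both replicate 3 arrays 0.51 (limma adjusted p = 0.0112), so its call depends on 1 array. It depends on the scaling as well: with all 6 arrays Srsf5 was higher under kept-gene centring (0.95, limma adjusted p = 0.000804) and differed by 0.019 under control centring (limma adjusted p = 0.946).

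hnRNP genes had a median difference of -0.53, the nearest to 0 of the 6 classes on the deposited scale. Of 19 tested 12 fell and 0 rose. Kept-gene centring gave 5 lower and 8 higher (26.3% and 42.1%), with a median of 0.15. Beside these, 18.2% of all tested genes were lower and 65.5% higher, with a median of 0.70. Control centring gave 18 lower and 0 higher, where 38.1% of all tested genes were lower and 14.6% higher. hnRNPs coat nascent transcripts, and many also act in mRNA export, stability or translation. Hnrnpr, which binds mRNA in nucleus and cytoplasm, was at 9.25, 8.74 and 9.55 in Gr1hi and 11.23, 11.47 and 11.29 in Gr1lo and fell by 2.15 (SE 0.19, limma adjusted p = 9.04e-06), the largest fall of the class.

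Genes of the A, B and D type proteins came next by size. Hnrnpa1 was at 8.57, 8.25 and 8.45 in Gr1hi and 9.82, 10.07 and 9.81 in Gr1lo (difference -1.47, SE 0.13, limma adjusted p = 1.32e-05), and Hnrnpa2b1 at 11.58, 11.82 and 11.63 in Gr1hi and 12.99, 13.18 and 13.15 in Gr1lo (difference -1.44, SE 0.087, limma adjusted p = 1.18e-06). Hnrnpa1 has close copies elsewhere in the genome, from which probes may also read. Whether the probe sets of other members also read related sequences was not tested. Hnrnpa0 was at 9.93, 9.79 and 10.09 in Gr1hi and 10.93, 10.99 and 10.88 in Gr1lo (difference -0.99, limma adjusted p = 3.37e-05), and Hnrnpd, which encodes the AU-rich element binding protein AUF1, at 11.34, 11.24 and 11.54 in Gr1hi and 12.44, 12.57 and 12.47 in Gr1lo (difference -1.12, limma adjusted p = 7.12e-06). The groups did not overlap in any of these 4.

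Smaller falls were found in Hnrnpu, which binds chromatin-associated RNA (11.92, 11.85 and 12.04 in Gr1hi, 12.70, 12.76 and 12.60 in Gr1lo, difference -0.75, limma adjusted p = 3.17e-05), a call lost under kept-gene centring (-0.070, limma adjusted p = 0.421). Hnrnph1, Hnrnpm, Hnrnpl, Hnrnpll, Hnrnpf and Hnrnph3 also fell, with differences of -0.72, -0.70, -0.61, -0.53, -0.46 and -0.37 and limma adjusted p-values of 3.33e-05 to 0.0375; under kept-gene centring none of the 6 was lower by the test, with Hnrnph1 at -0.044, Hnrnpm at -0.024 and the last 4 above 0. Hnrnph3 also lost its call without both replicate 3 arrays (limma adjusted p = 0.265) and without both replicate 1 arrays (limma adjusted p = 0.0895). Hnrnpll, known for directing the splicing of the CD45 gene in T cells, was at 10.92, 10.82 and 10.91 in Gr1hi and 11.46, 11.47 and 11.30 in Gr1lo. The remaining 7, Hnrnpul2, Hnrnpk, Hnrnpdl, Hnrnpul1, Hnrnpc, Hnrnpab and Hnrnph2, differed by -0.24 to 0.10 and did not pass the test. Hnrnpk, a protein that binds C-rich RNA, was at 12.47, 12.12 and 12.56 in Gr1hi and 12.63, 12.52 and 12.60 in Gr1lo, and Hnrnph2 at 10.93, 10.87 and 10.82 in Gr1hi and 10.73, 10.88 and 10.70 in Gr1lo.

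**Figure D3:**
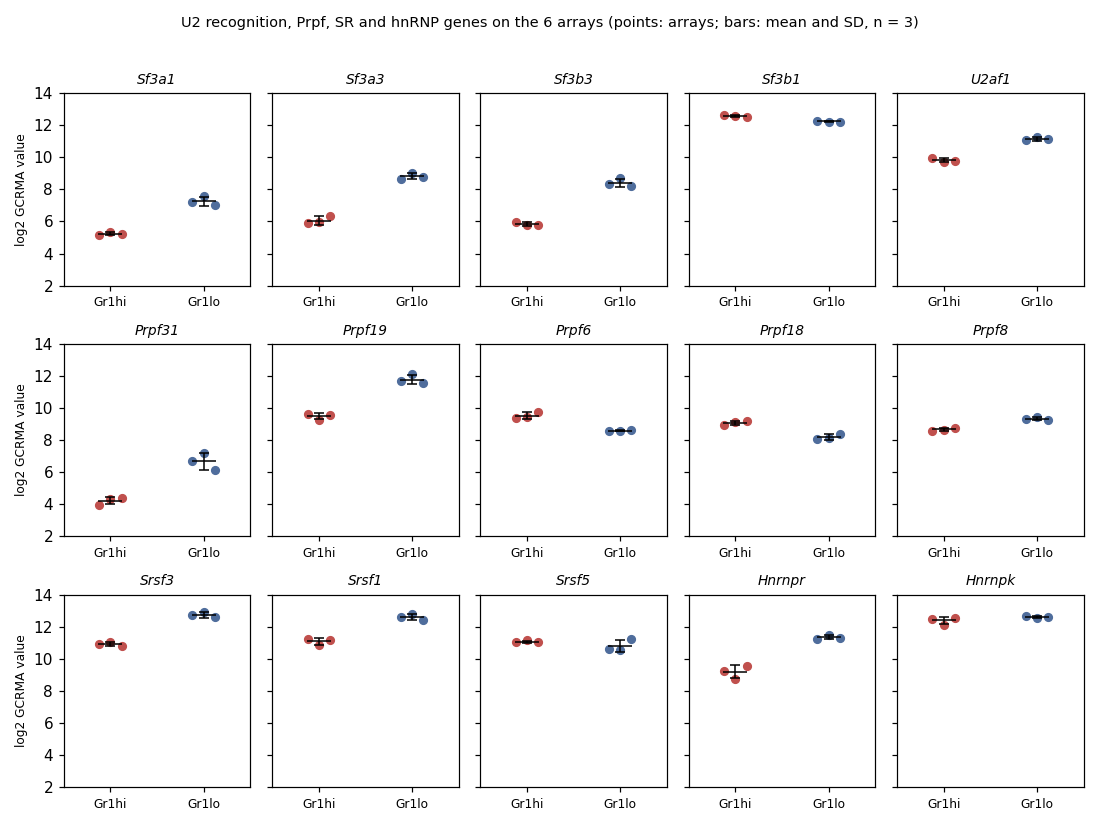
Log2 GCRMA values of 15 U2 recognition, Prpf, SR and hnRNP genes on each array, Gr1hi left of Gr1lo; points are arrays, bars the mean and SD of 3. Sf3b1, Prpf6 and Prpf18 are higher on all Gr1hi arrays, Srsf5 and Hnrnpk overlap, and the other 10 are lower on all Gr1hi arrays.

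Several members were read by more than 1 probe set. The 73 tested members had 181 kept probe sets, of which 123 were lower (30% of all kept probe sets), 6 higher (26.2%) and 52 did not pass the test when each was fitted on its own. In 46 members at least 2 probe sets were kept, and the other 27 tested members, Snrpf and Lsm10 among them, rest on 1. None of the 46 had probe sets called in opposite directions, which occurred in 89 of 5678 such genes in the whole table (1.57%). Of 35 members that fell and had further kept probe sets, 21 were lower in all of them and 29 in at least 1 further probe set. The falls without a further lower probe set were those of Snrpd3 (-0.057), Prpf4 (-0.27), Sf3b4 (-0.23), Lsm11 (-0.39), Lsm12 (-0.55) and Prpf38a (0.12 and 0.50). Brackets give the differences of their further probe sets, none of which passed the test. A lower probe set also existed in 4 of the 9 members with further probe sets that had not passed the test, and a higher one in 1, Sf3b2 (0.45, limma adjusted p = 0.00713).

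Hnrnpab, which encodes a CArG box and RNA binding protein, shows the widest spread. Its probe set with the highest mean was at 12.20, 12.26 and 11.67 in Gr1hi and 12.16, 12.24 and 12.15 in Gr1lo and differed by -0.14 (limma adjusted p = 0.422). Its 6 other kept probe sets were all lower in Gr1hi, with differences of -3.49 to -0.35, and their mean over all 7 fell by 1.79 (limma adjusted p = 1.53e-05). The statement that Hnrnpab did not pass the test therefore holds for that 1 probe set, and which transcripts each reads was not tested. In Srsf10 the 3 other probe sets differed by -2.07 to -1.86, against -0.86 for the one used, and in Prpf19 by -3.75 to -3.09, against -2.29. Sf3b1 had 2 of 4 probe sets higher, with differences of 0.13 to 0.42, and Prpf6 had a further one at 0.33 that did not pass. In Hnrnpdl, 3 of 7 probe sets were lower, with differences of -1.34 to -0.64.

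**Figure D4:**
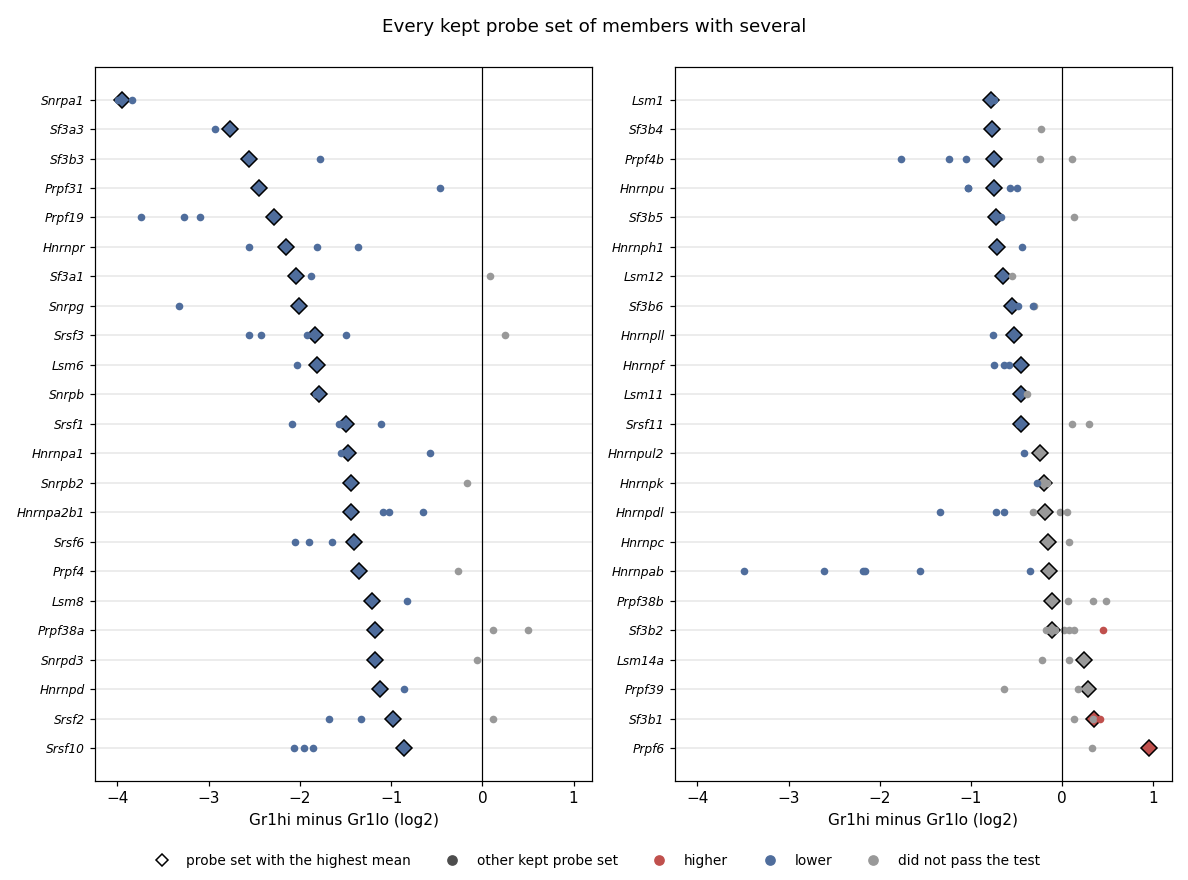
Difference (Gr1hi minus Gr1lo, log2 units) of every kept probe set in the 46 members with at least 2; diamonds are the probe sets with the highest mean, which stand for the gene, circles the others, blue lower, red higher, grey did not pass the test. Circles and diamonds of a gene do not carry opposite calls, and the circles of Hnrnpab lie at -3.49 to -0.35, left of its grey diamond.

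Genes that work with the members were read from 5 lists. Of 137 tested 90 fell and 17 rose (31.8% and 24.6% of all tested genes), with a median difference of -0.71. Under kept-gene centring 52 were lower and 50 higher (38.0% and 36.5%), against 18.2% and 65.5% of all tested genes. Under control centring the shares of all tested genes were 38.1% and 14.6%. The same shares of all tested genes stand beside the counts of each list below. Of 18 tested genes of snRNP assembly and transport 15 fell and 1 rose (9 and 2 under kept-gene centring). These include Gemin2, which with Smn1 loads Sm rings onto snRNAs and fell to 3.58 ± 0.32 in Gr1hi, against 6.05 ± 0.59 in Gr1lo (SD, n = 3 each; difference -2.47, limma adjusted p = 8.77e-05). The box H/ACA particle assembly gene Naf1 and the cap-binding gene Ncbp2 differed by -4.35 and -3.02. The exception was Wdr77, a partner of the methyltransferase Prmt5 that modifies Sm proteins: it rose to 10.51 ± 0.11 in Gr1hi, against 9.49 ± 0.25 in Gr1lo (limma adjusted p = 0.000185), while Prmt5 fell to 2.66 ± 0.09 in Gr1hi, against 4.28 ± 0.51 in Gr1lo (difference -1.62); background limits this difference, since the Gr1hi mean is no higher than the absent-transcript controls reach.

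Of 54 other spliceosome genes 35 fell and 4 rose (17 and 21 under kept-gene centring). The largest falls were in Snrnp25 (-3.96), of the minor spliceosome, the cyclophilin gene Ppil1 (-3.38) and Eftud2 (-2.66), which encodes the GTPase of the U5 particle. Among those that rose, Txnl4b differed by 1.45, Syf2 by 1.41, the helicase gene Dhx38 by 1.39 and Slu7, which acts in the last catalytic step as Prpf18 does, by 1.13 (limma adjusted p = 0.000169). Of 21 tested exon junction, export and SR-related genes 14 fell and 3 rose (10 and 7 under kept-gene centring, 14 and 1 under control centring). Thoc1, Alyref and Thoc3, of the complex that couples splicing to export, differed by -2.95, -2.78 and -2.06, whereas Casc3, of the exon junction complex, rose by 1.18, Son by 0.43 and Thoc2 by 0.31. The calls of Son and Thoc2 were lost under control centring (0.17 and 0.052, limma adjusted p = 0.325 and 0.834), and that of Thoc2 also without both replicate 1 arrays (limma adjusted p = 0.213).

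Of 8 tested splicing kinase genes 4 rose and 1 fell, where 24.6% of all tested genes were higher. Under kept-gene centring 7 were higher and 1 lower, where 65.5% of all tested genes were higher, and under control centring 3 and 1, where 14.6% were. Clk1, whose product phosphorylates SR proteins in the nucleus, rose to 12.39 ± 0.07 in Gr1hi, against 11.34 ± 0.15 in Gr1lo (difference 1.05, limma adjusted p = 9.78e-06), and Clk4 and Srpk2 rose by 0.84 and 0.75. Srpk1, which phosphorylates SR proteins in the cytoplasm, fell to 8.27 ± 0.11 in Gr1hi, against 9.41 ± 0.07 in Gr1lo (limma adjusted p = 3.54e-05). Clk3 also rose, by 0.70, but did not pass under control centring (0.44, limma adjusted p = 0.0527).

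Of 36 other splicing regulator genes 25 fell and 5 rose (15 and 13 under kept-gene centring, with a median of -0.12, and 25 and 3 under control centring). The largest falls were in Ilf2, Ptbp1 and Syncrip, with differences of -4.55, -2.89 and -2.65. Ptbp1, which encodes a repressor that binds pyrimidine tracts, was at 7.11 ± 0.10 in Gr1hi and 10.00 ± 0.25 in Gr1lo, while its paralogue Ptbp2 rose by 0.44 (limma adjusted p = 0.0198). Rbm47, an RNA binding protein that also serves as a cofactor of RNA editing, rose by 6.13, with 9.32 ± 0.28 in Gr1hi and 3.19 ± 0.35 in Gr1lo (limma adjusted p = 1.48e-07), the largest rise in the lists. Rbm5 and Mbnl2 rose by 0.75 and 0.68, and Celf2 by 0.47. Under control centring Ptbp2 (0.19, limma adjusted p = 0.392) and Celf2 (0.21, limma adjusted p = 0.196) did not pass, nor did Ptbp2 without both replicate 3 arrays (limma adjusted p = 0.0746) or both replicate 1 arrays (limma adjusted p = 0.0793).

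**Figure D5:**
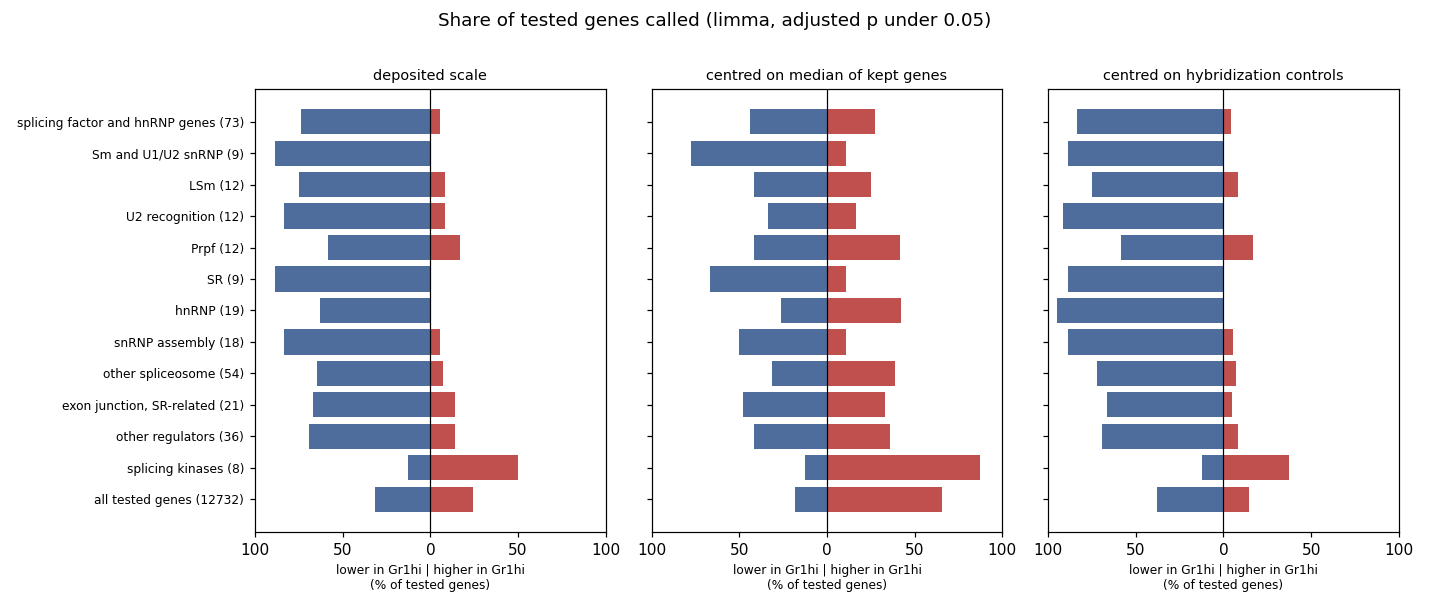
Share of tested genes called lower (blue, to the left) or higher (red, to the right) in Gr1hi, in percent of tested genes, for the members, their 6 classes, the 5 lists of other splicing genes and all tested genes, with the number tested in brackets; the 3 panels are the deposited scale and 2 centrings. On the deposited scale 74.0% of the 73 members were lower and 5.48% higher, beside 31.8% and 24.6% of all tested genes.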

How the data were processed

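Total RNA of 6 sorted samples (100 ng each) was labelled with biotin for 3' arrays, per the labels. The authors deposited log2 values of 45101 probe sets; the submitters' processing notes name GCRMA, without version or settings. Samples were grouped by title; 1 descriptive field of Gr1lo replicate 3 can be read as GFP-negative, and its title was followed. Probe sets with 1 gene symbol in the platform annotation named 18193 genes. A gene was tested if it exceeded the 40th percentile of an array (2.57 to 2.68) on 3 or more of the 6. The group difference was fitted with limma (version 3.58.1, R 4.3.3; trended eBayes, two-sided, Benjamini-Hochberg over 12732 genes, threshold 0.05; 4 residual and 5.1 prior degrees of freedom), and the fit was tested on simulated data. The number of arrays limits the precision. Members are named by class: up to 6 largest called differences without overlap, up to 3 against the class, the 2 smallest, and any with opposing probe sets; of other lists, up to 3 in each direction. The rule named 49 members; Srsf12 and the other members given with values, and of the other lists Prmt5, Slu7, Clk3, Ptbp2 and Celf2, were picked with their values in view. The members and lists were chosen with earlier results of these data known. Promoters are from a RefSeq table of GRCm38.p6. Alternatives were other filters, probe set rules, variance models, scalings, thresholds, a replicate block and arrays left out.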

Additional observations from a re-analysis of the deposited data

How the results depend on the processing

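With kept-gene centring 32 members were lower and 20 higher, and 52 and 50 of the other splicing genes (18.2% and 65.5% of all tested genes). The members' median difference was then -0.093, and with control centring that median was -1.03. Tested against a 1.5-fold change, 33 members were lower and 2 higher, 55 and 8 of the other splicing genes, and 3774 genes of the whole table were called, where a smaller count follows from the stricter question. Leaving out each array in turn gave 51 to 53 members lower and 4 to 5 higher, 84 to 86 and 15 to 17 of the other genes, 6549 to 6891 genes in all, and a members' median of -0.83 to -0.73. With the replicate number as a block 53 members were lower and 4 higher, 91 and 17 of the other genes, and 7056 genes were called. Hnrnph3 was the member lost (limma adjusted p = 0.0553). Same-numbered arrays of the groups correlated in their deviations at 0.17, 0.0043 and 0.15, and Gr1hi replicate 2 correlated best with Gr1lo replicate 3. The values for replicates 1 and 3 were the highest of all pairs, and the poly-A controls and Xist also matched by these numbers. The main fit did not pair the samples, and whether they are paired was not settled. Of 979 values recomputed for 49 named members under the alternatives, 937 kept their direction and side of the threshold, 12 lost and 12 gained a call, and 18 changed sign. All sign changes were of genes that had not passed the test, except Snrpc (0.052) and Srsf11 (0.22) under kept-gene centring. That centring also turned Hnrnpab to 0.53, Lsm14b to 0.66, Prpf38b to 0.57 and Sf3b2 to 0.57; control centring turned Hnrnph2 to -0.16, Lsm14a to -0.021 and Snrpn to -0.13. The mean of probe sets turned Prpf38b to 0.19, Prpf39 to -0.057 and Sf3b2 to 0.046. Leaving out 1 array gave -0.25 to 0.045 for Hnrnpab, the upper value without Gr1hi replicate 3, and 0.031 without both replicate 3 arrays. Lsm14b was 0.12 with quantile normalization repeated and -0.14 to 0.089 with 1 array left out, above 0 without Gr1hi replicate 2 and without Gr1lo replicate 1 or 2. The cause of each was not tested. Values near the absent-transcript level (at most 2.77) limit Lsm2, Snrpn, Prpf40b and Prmt5.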

Other observations

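Gr1lo replicate 2 held the highest of the 3 values in 55 of 73 tested members, against 36.8% of all tested genes. Among the 54 members lower in Gr1hi it held the highest in 48, but the share among all genes called lower was not computed. Gr1lo replicate 3 held the lowest in 42 of 73, and the share of all tested genes was not computed for the lowest value. The median deviation of the members from their group mean was 0.11 in Gr1lo replicate 2, -0.03 in replicate 1 and -0.06 in replicate 3. In Gr1hi the highest value was spread over the arrays, at 20, 21 and 32 of 73 members in replicates 1, 2 and 3. These arrays held the highest value in 30.3%, 36.1% and 33.6% of all tested genes. The members' median deviations were 0.0074, -0.02 and 0.04. These are values of single arrays, and no test was made of them.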
